A study of Mus musculus with 18 samples.

Results

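Inflammasomes are protein complexes that activate inflammatory caspases, and the chromatin accessibility of 10 genes of this machinery was described in mouse macrophages. The members were the sensors Nlrp3, Nlrc4 and Aim2, the NAIP receptors Naip2, Naip5 and Naip6, the adaptor Pycard, the caspases Casp1 and Casp4, and the pore protein Gsdmd. They are 10 of 21938 protein-coding genes of the annotation (GENCODE release M21, coordinates on mm10). For each gene, accessible regions were taken from the gene body and from 50 kb to each side of its most upstream transcription start site. These windows held 105 of 82391 reference peaks (0.127%), 65 of 59617 extended regions (0.109%) and 115 of 84660 summits (0.136%). A reference peak is an accessible interval called by the authors, a summit is a local maximum inside it, and an extended region joins neighbouring peaks with their flanks.

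Accessibility had been measured by ATAC-seq, in which a transposase tags open chromatin with adapters. Bone marrow-derived macrophages (BMDMs), grown in culture from marrow precursors, came from wild type C57/BL6 male mice aged 6 to 8 weeks. The 18 libraries formed 9 groups of 2, and all cells had first received the vehicle DMSO for 1 h. One group was left untreated (UT), 4 groups were treated with lipopolysaccharide (LPS) and 4 with IL-4, a cytokine of type 2 immunity, both at 10 ng/mL for 30 min, 1 h, 2 h or 4 h.

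The authors pooled all libraries into a single catalog before deposition, with no column per library. Neither the response of these genes to LPS or IL-4 nor the spread between replicates was therefore analysed here, the depth of the libraries is unknown, and no test was run. Each summit carries a score of unstated scale, which was used as a rank. The lowest score in the catalog was 102, the median 737 and the highest 2781. As a check of the labelled cell type, all 8 macrophage markers had a peak at a start site, with scores from 1176 to 2021. Among 15 markers of other cell types, 5 had one (Klrb1c, Flt3, Zbtb46, Col1a1 and Pecam1), with scores from 613 to 1345. Over all coding genes the share with such a peak was 56.5%.

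Inflammasome assembly begins when a cytosolic sensor meets its trigger. Nlrp3 responds to disturbed membranes and potassium efflux, Aim2 binds double-stranded DNA, and Nlrc4 is engaged by NAIP receptors that have bound bacterial flagellin or parts of secretion systems. The adaptor Pycard, also called ASC, links sensors to Casp1, which matures the cytokines IL-1β and IL-18. Casp4, known as caspase-11 in mice, binds LPS in the cytosol. Both caspases cut gasdermin D, the product of Gsdmd, whose amino-terminal part forms pores in the plasma membrane. In macrophages, transcription of Nlrp3 and Il1b is known as the priming step that precedes activation.

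All members had a start site peak, defined here as a reference peak with an edge within 1000 bp of an annotated start site. The sequence around the best start site summit was read for 11 consensus motifs of transcription factors, within 100 bp to each side and on both strands. The windows of 7 members are shown because they carry motif matches described below. Each is printed 5′ to 3′ on the strand of the gene, from assembly GRCm38.p6 (the coordinates of mm10), with the matches in capitals. The NF-kB consensus marks Nlrp3, Pycard, Casp4 and Gsdmd, SP/KLF (GGGGCGG) is the first capital stretch of Pycard, GAS (TTCNNNGAA, bound by STAT dimers) marks Naip6, and RUNX (TGTGGT) marks Nlrc4 and Casp1.
Nlrp3 start site (chr11:59541378-59541578, plus strand): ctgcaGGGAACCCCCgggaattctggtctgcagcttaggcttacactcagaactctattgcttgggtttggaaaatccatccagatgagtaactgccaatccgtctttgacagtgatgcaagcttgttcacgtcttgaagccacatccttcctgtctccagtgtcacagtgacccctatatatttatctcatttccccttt
Nlrc4 start site (chr17:74459140-74459340, minus strand): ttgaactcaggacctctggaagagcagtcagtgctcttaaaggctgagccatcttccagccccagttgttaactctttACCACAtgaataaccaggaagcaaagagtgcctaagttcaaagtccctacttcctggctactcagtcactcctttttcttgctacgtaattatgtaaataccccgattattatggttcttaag
Naip6 start site (chr13:100317571-100317771, minus strand): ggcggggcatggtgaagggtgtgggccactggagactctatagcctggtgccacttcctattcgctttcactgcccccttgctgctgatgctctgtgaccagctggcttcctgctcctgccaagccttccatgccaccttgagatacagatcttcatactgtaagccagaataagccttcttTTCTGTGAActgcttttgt
Pycard start site (chr7:127993694-127993894, minus strand): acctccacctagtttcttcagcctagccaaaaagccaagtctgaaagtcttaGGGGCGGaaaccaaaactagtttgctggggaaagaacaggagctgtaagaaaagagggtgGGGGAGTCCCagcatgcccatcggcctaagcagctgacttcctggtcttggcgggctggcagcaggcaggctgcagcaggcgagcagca
Casp1 start site (chr9:5298444-5298644, plus strand): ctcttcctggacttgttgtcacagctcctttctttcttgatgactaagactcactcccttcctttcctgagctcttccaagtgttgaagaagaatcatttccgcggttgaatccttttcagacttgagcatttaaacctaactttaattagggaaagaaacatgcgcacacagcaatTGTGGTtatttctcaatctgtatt
Casp4 start site (chr9:5308673-5308873, plus strand): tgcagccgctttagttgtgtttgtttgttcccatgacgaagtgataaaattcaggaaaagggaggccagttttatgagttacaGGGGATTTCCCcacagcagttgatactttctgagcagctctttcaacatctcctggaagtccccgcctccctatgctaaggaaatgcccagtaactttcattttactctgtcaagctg
Gsdmd start site (chr15:75862156-75862356, plus strand): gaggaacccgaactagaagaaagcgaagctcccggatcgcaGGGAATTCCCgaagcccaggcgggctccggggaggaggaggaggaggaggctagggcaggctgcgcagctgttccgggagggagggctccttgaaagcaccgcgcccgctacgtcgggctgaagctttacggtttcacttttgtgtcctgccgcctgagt

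The start site windows of Aim2 and Naip2 held no match. NF-kB matches were found at the start site summits of 4 of 10 members, whereas 4.22% of the best start site summits of all coding genes held one (11124 distinct summits). In Casp4 the capital stretch holds 2 overlapping NF-kB matches, whose centres lay 11 and 12 bp from the summit. The match of Pycard lay 16 bp from the summit and that of Nlrp3 90 bp from it, both inside the reference peak. In Gsdmd the match lay 54 bp from the summit but ended 7 bp outside the reference peak, which is only 66 bp wide. Within 50 bp of the summit, only Pycard and Casp4 of the members held an NF-kB match, beside 2.28% of all coding start site summits. RUNX was matched at 2 of 10 members (9.39% of all coding start site summits), EICE (GGAANNGAAA, bound by PU.1 with IRF factors) at 1 (2.31%), GAS at 1 (4.35%) and SP/KLF at 1 (38.3%). These counts cover the best summit of each start site and leave out lower summits. The remaining consensus motifs were matched at 0 of 10 member summits. Their shares over all coding start site summits were 2.25% for ISRE, 3.31% for STAT6, 4.90% for AP-1, 3.31% for CRE, 4.08% for PU.1/ETS and 5.93% for C/EBP. As a rough limit (3 divided by the number of windows), 10 windows without a match leave room for a share of about 30%. This limit takes the windows as independent, whereas the start site peaks of the NAIP genes are copies of one another. A match describes sequence and does not show that a factor was bound.

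The start site windows of 9 of 10 members were poor in CpG dinucleotides, with Gsdmd as the exception. The ratio of observed to expected CpG, which is 1 when C and G follow each other as often as base composition predicts, had a median of 0.237 over the members and of 0.793 over all coding start site summits. The individual ratios were 0 for Aim2 and Naip2, 0.141 for Naip6, 0.186 for Naip5, 0.219 for Nlrc4, 0.255 for Pycard, 0.276 for Nlrp3, 0.292 for Casp4, 0.381 for Casp1 and 0.809 for Gsdmd. Median GC content was 47.0% for the members and 63.7% for all. Gsdmd was thus the single member on the CpG-rich side, with 16 CpG dinucleotides in its window.

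Start site peaks were then compared by their score. The 10 of 10 members with such a peak compare with 56.5% of coding genes (12402 of 21938). The scores in descending order were 1955 for Aim2, 1708 for Nlrp3, 1683 for Nlrc4, 1581 for Casp1, 1381 for Gsdmd, 1176 for Casp4, 1129 for Naip2, 968 for Naip5, 867 for Naip6 and 845 for Pycard. Their median of 1278.5 (SD 389.9 over the 10 genes) was below the median of 1456 over the coding genes with such a peak, and 4 members were above it. The sensors Aim2, Nlrp3 and Nlrc4 thus stood at the upper end, and the NAIP receptors and the adaptor at the lower end. Aim2 exceeded 85.0% of the coding start site scores and Pycard 14.2%. How far such scores vary between libraries is unknown, so that close neighbours in this order cannot be told apart.

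**Figure D1:**
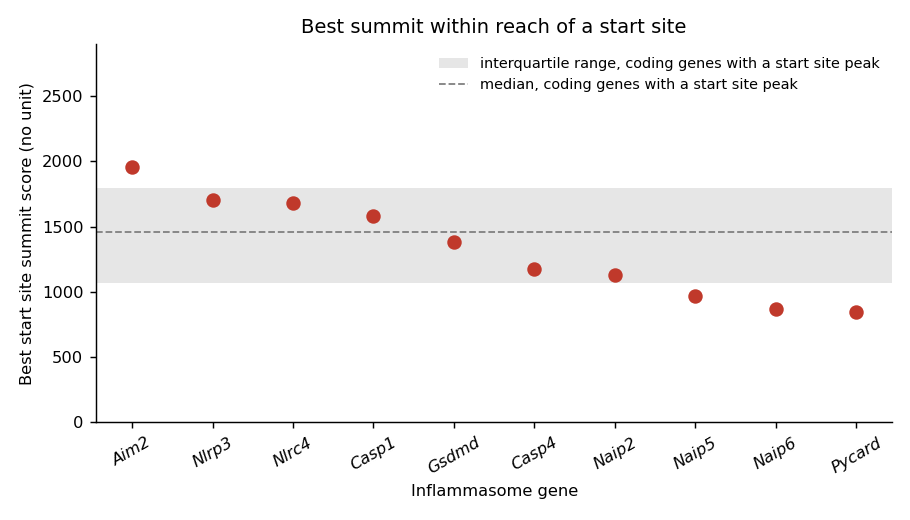
Score of the best summit (no unit) within 1000 bp of a start site for each inflammasome gene, in descending order, with the interquartile range and median of the 12402 coding genes that have a start site peak. Aim2 sits above the interquartile range (1071 to 1799), and Naip5, Naip6 and Pycard sit below it.

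The number of accessible regions in the window also differed between the members. The windows contained a median of 8.5 reference peaks and 6.5 extended regions, beside 6 and 5 over all coding genes. Nlrp3 had 36 reference peaks, followed by Gsdmd with 18, Aim2 with 16, Pycard with 11, Casp4 with 9, Casp1 and Nlrc4 with 8, Naip2 with 6, Naip5 with 3 and Naip6 with 1. The windows of Aim2 (165162 bp) and Naip2 (108030 bp) were longer than the others (100001 bp). Per 100 kb of window, Aim2 had 9.69 peaks, fewer than Pycard with 11, and Naip2 had 5.55. Because the windows of Casp1 and Casp4, and those of Naip2 and Naip5, overlap, 11 peaks were counted in more than 1 window. Of the 105 distinct peaks, 51 had a member as their nearest coding start site and 54 had another gene. Summits lay in introns in 61 cases, between genes in 31, in coding exons in 4 and in noncoding parts of exons in 9. Introns thus held 58.1% of the member summits and 46.7% of those of all reference peaks, and stretches between genes held 29.5% and 42.5%. The windows include the gene bodies by their definition.

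**Figure D2:**
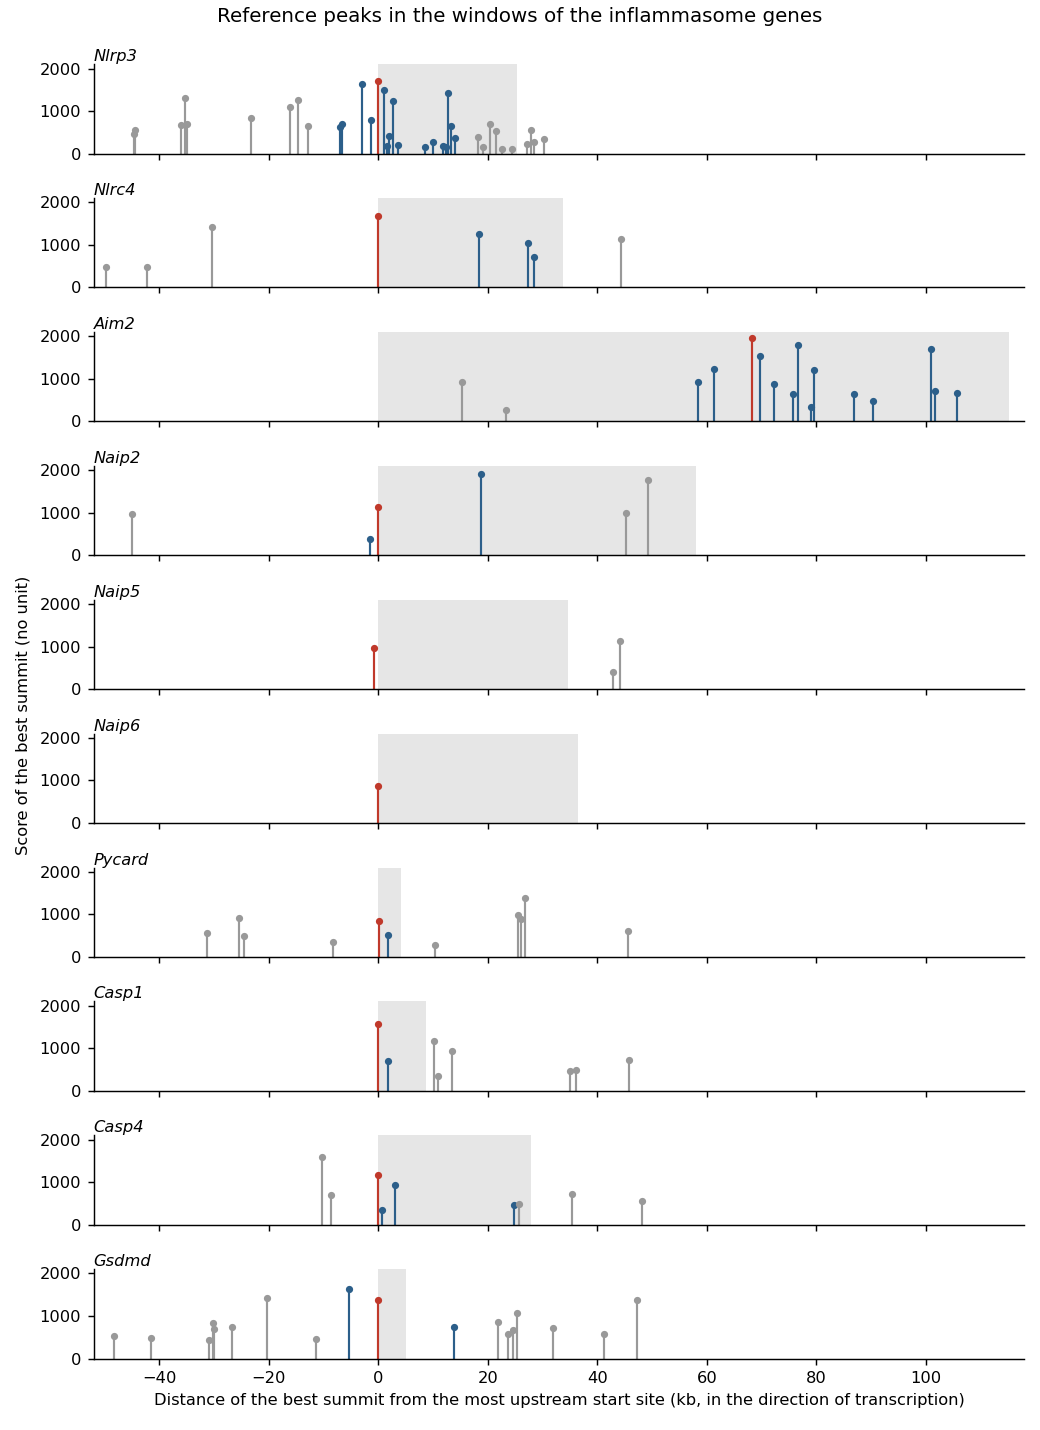
Score of the best summit of each reference peak (no unit) against its distance from the most upstream start site of the gene, in kb in the direction of transcription. Grey shading is the gene body, red the best start site peak, blue other peaks nearest to the named gene and grey lines peaks nearest to another gene. Nlrp3 shows the densest row of peaks (36) and Naip6 a single one.

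Nlrp3, the sensor with the broadest range of triggers, lies at chr11:59541568-59566956 on the plus strand. Its 36 reference peaks exceeded those of 99.3% of coding genes. Counted as extended regions, its 12 exceeded 89.4% of coding genes and were fewer than the 14 of Gsdmd. They equalled the 12 of Aim2, whose window is longer. The neighbours contributed: 17 peaks were nearest to Nlrp3, 10 to Olfr222 downstream (6 of these inside the Nlrp3 body) and 9 to Zkscan17 upstream. Of the 4 peaks at Nlrp3 start sites, the best one, chr11:59541351-59541707, covered the most upstream start (score 1708), and a wider one of 571 bp covered a further start downstream (score 1493). The best scored peak away from any coding start was chr11:59538388-59538767, 2998 bp upstream, with a score of 1644. Inside the gene, summits scored 1248 at 2651 bp and 1418 at 12799 bp from the most upstream start.

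The body of Nlrp3 differed from the other members in having many wide peaks of low score. Of the 18 peaks with a summit in the body, 12 scored below 486, the lower quartile of all reference peaks, and 3 scored above 1000. In the whole Nlrp3 window, 9 peaks scored below 486 and were also wider than 291 bp, the upper quartile of width, and 6 of them were in the gene body. Such peaks made up 2.96% of all reference peaks and 10.5% (11) of the 105 in the member windows, and the others were 1 peak each in the windows of Pycard and Gsdmd. At least 6 of them were found in the bodies of 16 coding genes, Nlrp3 included. The list, which was drawn up after the values were seen, was headed by Rasgef1b with 22 and Plek with 19. The extended region with the most summits in the member windows, chr11:59549250-59556681, lay in the Nlrp3 introns. It held 7 reference peaks and 8 summits, more summits than 99.8% of extended regions, and its peaks scored from 147 to 1418 with a median of 266.

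**Figure D3:**
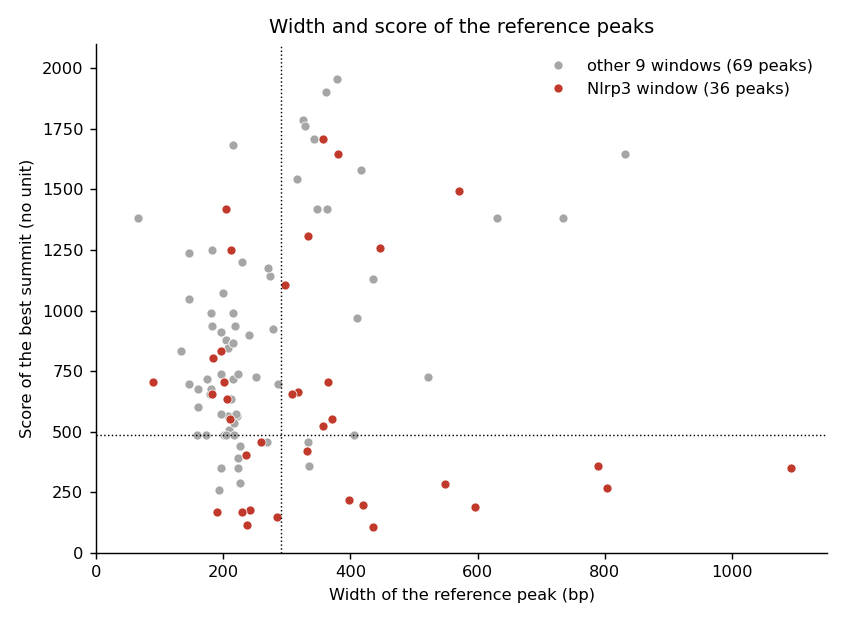
Score of the best summit (no unit, vertical axis) against width (bp, horizontal axis) for the reference peaks of the Nlrp3 window (red) and of the other windows (grey). Dotted lines mark the upper quartile of width (291 bp) and the lower quartile of score (486) over all reference peaks, and 9 of the 11 peaks in the lower right part belong to Nlrp3.

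The 4 widest peaks of the member windows included 3 from the Nlrp3 window. The widest, of 1093 bp, covered the start of Olfr222, an olfactory receptor gene, and scored 349. Within Nlrp3 introns, peaks of 803 and 789 bp scored 266 and 358. The peak of 831 bp upstream of Gsdmd scored 1644.

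Nlrc4, which assembles into a wheel once a NAIP receptor has bound its ligand, lies at chr17:74425438-74459142 on the minus strand. Its single start site peak, chr17:74459137-74459351, scored 1683, and all 3 further peaks nearest to the gene were in its introns (scores 1248, 1048 and 727). The other 4 of the 8 peaks were nearest to Slc30a6 or Yipf4. EICE was matched in 3 of the 8 peaks: 2 in Nlrc4 introns and 1 in an intron of Slc30a6. The share over all reference peaks was 4.69%, and this gene and motif were singled out after the values were seen. The best distal peak of Nlrc4, 18419 bp downstream of the start, held EICE and a pair of PU.1/ETS matches (GAGGAAGT).

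Aim2, the DNA sensor, lies at chr1:173350879-173466040 on the plus strand and had 16 reference peaks, all inside the gene body. Its most upstream annotated start lies far from the others, and the best start site peak, chr1:173418925-173419303 (score 1955), had its summit 68240 bp downstream of it. A second peak, chr1:173420365-173420680 with a score of 1543, covered a further start that lies 6 bp from the RefSeq start. The most upstream start itself had no reference peak within 1000 bp. Distal intronic peaks scored up to 1786 (chr1:173427394-173427718) and 1708 (chr1:173451703-173452045).

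ISRE (GAAANNGAAA), the consensus of interferon-stimulated response elements, was matched in 4 of the 105 member peaks, and each of the 4 was in an Aim2 intron. This amounts to 25% of the 16 Aim2 peaks, beside 3.67% of all reference peaks. Aim2 was singled out after these values were seen. The count depends on the distance searched: ISRE was matched in 2 of 105 member peaks within 50 bp of the summit (1.905%, all 2.02%), both in Aim2 introns, and in 9 within 200 bp (8.57%, all 6.55%). The 4 peaks scored 258, 1200, 1708 and 716, and 1 of them was nearest to the start of Cadm3. The same window that scored 1200 held EICE as well. No ISRE match was present within 100 bp of the best start site summit of any member.

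No best summit of a member window peak over 1000 bp from every coding start held more than 2 kinds of motif. Among those with 2 kinds that were nearest to a member, the 5 with the highest scores are shown to place the matches next to each other. The capitals mark AP-1 (TGACTCA or TGAGTCA) and C/EBP (TTGCNNAA) in the Naip2 intron, ISRE and PU.1/ETS in the first Aim2 intronic window, NF-kB and AP-1 in Nlrp3, EICE and PU.1/ETS in Nlrc4, and EICE and ISRE in the second Aim2 window.
Naip2 distal (chr13:100183202-100183402, minus strand): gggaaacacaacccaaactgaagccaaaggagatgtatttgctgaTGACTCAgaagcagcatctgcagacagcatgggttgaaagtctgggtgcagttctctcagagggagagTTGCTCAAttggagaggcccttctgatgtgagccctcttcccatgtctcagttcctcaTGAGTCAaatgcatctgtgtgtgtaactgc
Aim2 distal (chr1:173451756-173451956, plus strand): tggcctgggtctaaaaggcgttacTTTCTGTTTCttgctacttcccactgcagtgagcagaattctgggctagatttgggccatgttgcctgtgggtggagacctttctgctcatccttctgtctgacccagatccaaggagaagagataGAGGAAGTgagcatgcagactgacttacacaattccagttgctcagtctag
Nlrp3 distal (chr11:59544119-59544319, plus strand): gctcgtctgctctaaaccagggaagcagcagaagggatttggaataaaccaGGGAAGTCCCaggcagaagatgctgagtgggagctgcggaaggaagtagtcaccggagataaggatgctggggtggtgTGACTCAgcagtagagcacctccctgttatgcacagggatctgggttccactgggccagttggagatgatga
Nlrc4 distal (chr17:74440623-74440823, minus strand): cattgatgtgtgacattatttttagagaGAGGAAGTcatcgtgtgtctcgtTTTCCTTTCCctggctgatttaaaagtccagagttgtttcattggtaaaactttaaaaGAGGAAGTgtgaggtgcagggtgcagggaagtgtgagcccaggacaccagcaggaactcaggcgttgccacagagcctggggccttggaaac
Aim2 distal (chr1:173430409-173430609, plus strand): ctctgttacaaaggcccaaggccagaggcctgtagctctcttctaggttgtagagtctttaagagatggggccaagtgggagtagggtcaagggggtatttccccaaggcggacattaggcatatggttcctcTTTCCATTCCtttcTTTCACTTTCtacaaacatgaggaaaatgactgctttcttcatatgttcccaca

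The Nlrp3 window of this set lies 2651 bp downstream of the most upstream start, and its summit scored 1248. The NF-kB match there is 44 bp from the summit. Together with the start site, the Nlrp3 window contained 4 peaks with an NF-kB match of 36 (11.1%), the other 2 being nearest to Olfr222 and Zkscan17. Over all member peaks, 8 of 105 (7.62%) held NF-kB, beside 5.57% of all reference peaks. Within 50 bp of the summit the order turned, with 3 of 105 (2.86%) beside 3.41% of all.

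The shares of the other motifs in the 105 member peaks were set beside the whole catalog. EICE was matched in 9 peaks (8.57%) and in 4.69% of all, and in 7 of 47 member peaks at or above the median score (14.9%, all such peaks 5.03%). Within 200 bp of the summit the shares were 9.52% and 6.72%, and within 50 bp 5.71% and 2.995%. RUNX was matched in 22 (20.95%, all 19.7%), C/EBP in 14 (13.3%, all 11.4%), AP-1 in 14 (13.3%, all 16.2%) and PU.1/ETS in 10 (9.52%, all 9.22%). GAS, STAT6 (TTCNNNNGAA) and SP/KLF were each matched in 5 (4.76%), where all reference peaks gave 6.40%, 6.87% and 9.32%. CRE (TGACGTCA) was matched in 0 of 105 and in 0.927% of all. By the same rough limit, which takes neighbouring peaks as independent, 0 of 105 leaves room for a share of about 2.86%. The 10-base ISRE and EICE differ at a fixed base, so that they cannot match at the same position and strand, and overlapping matches of 1 motif were counted once per window. Within 100 bp, apart from EICE, which was above the catalog, and SP/KLF, which was below it, the member shares lay within 3 percentage points of it. This depends on the distance searched. Within 200 bp SP/KLF was matched in 11.4% of member peaks and 12.8% of all. Within 50 bp C/EBP was matched in 10.5% (all 6.56%), GAS in 0% (all 3.22%) and STAT6 in 0% (all 3.78%).

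**Figure D4:**
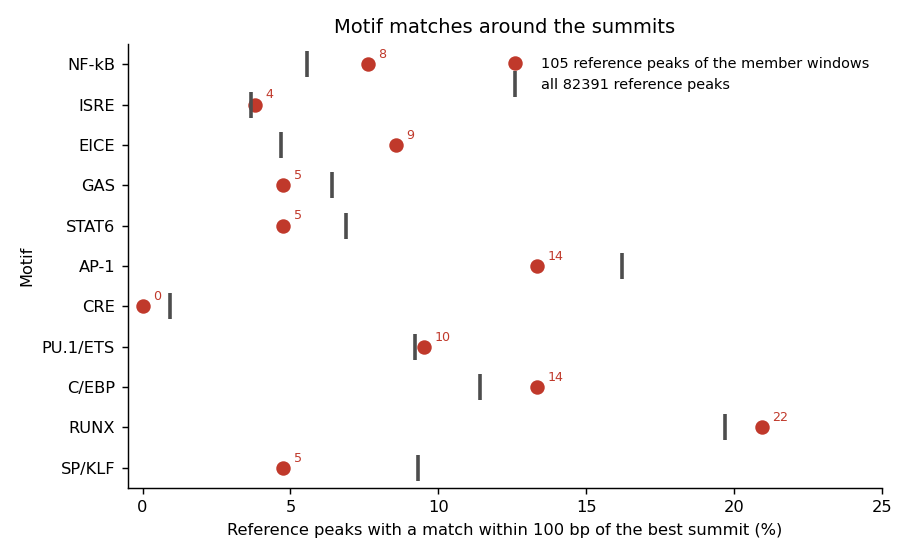
Percent of reference peaks with a consensus match within 100 bp of the best summit, for the peaks of the member windows (red points, with the number of peaks beside them) and for all reference peaks (dark vertical ticks). EICE stands farthest above the catalog (9 of 105) and SP/KLF farthest below it (5 of 105).

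The NAIP receptors lie side by side on chromosome 13, all on the minus strand: Naip2 at chr13:100144063-100202092, Naip5 at chr13:100211739-100246323 and Naip6 at chr13:100281121-100317674. Naip2 recognises the inner rod of bacterial secretion systems, and Naip5 and Naip6 recognise flagellin. Their start site peaks scored 1129, 968 and 867. Naip2 also had the best scored distal peak of all member windows, chr13:100183122-100183482, in an intron 18790 bp downstream of the start (score 1903). Naip5 and Naip6 had no summit in their gene bodies apart from the start site peak of Naip6. The single peak of Naip5 did not cover its GENCODE start, from which it lay 664 bp, but it covered the RefSeq start 1013 bp further upstream. In Naip6 the peak covered the most upstream GENCODE start, whereas the RefSeq start lay 943 bp away.

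The NAIP genes are recent duplicates, and a read that matches several copies has no unique position. How the mapping step placed such reads is not given in the sources used here, so peaks and scores of the NAIP genes may hold reads of another copy or lack some of their own. The share of 76-base stretches, the length of the sequenced reads, that occur more than once on the primary chromosomes was 15.1% in the Naip2 window, 29.05% for Naip5 and 34.2% for Naip6. It was 10.8% in the genome sampled every 2000 bp, 10.8% for Casp1, 7.61% for Casp4, 6.06% for Pycard and from 0.599% to 2.95% for Nlrp3, Aim2, Gsdmd and Nlrc4. Within the 3 start site peaks of the NAIP genes it ranged from 20.5% to 23.0%. Counted per 100 kb of stretches found once, Naip6 had 1.52 peaks, Naip5 4.23 and Naip2 6.54, beside 8.24 to 36.2 for the other members. The part that read placement had in these counts was not tested.

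**Figure D5:**
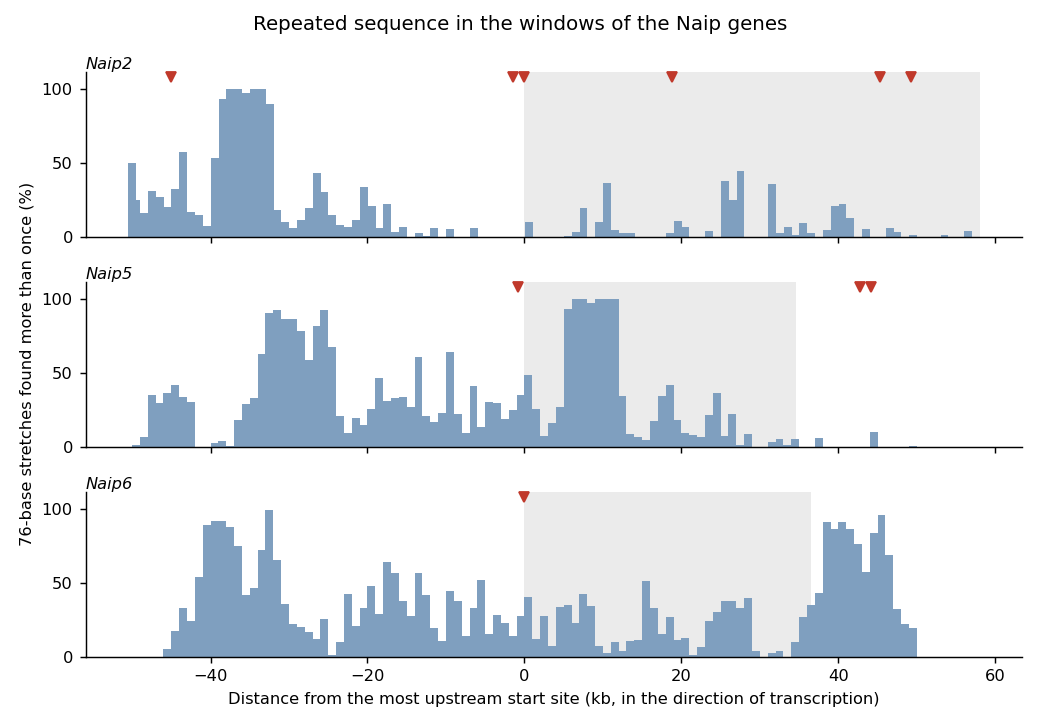
Percent of 76-base stretches that occur more than once in the genome, in bins of 1000 bp, against kb from the most upstream start (in the direction of transcription), for the windows of Naip2, Naip5 and Naip6. Grey shading is the gene body and red triangles are best summits of reference peaks, of which Naip2 has 6, Naip5 3 and Naip6 1.

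The start site peaks of the NAIP genes are copies of one another. The Naip5 peak aligned to the start site region of Naip6 over all of its 410 bp with 97.8% identity, and to that of Naip2 over 398 bp with 94.0%. Naip1, the receptor of the secretion system needle and not a member here, aligned to the same peak with 76.2% identity over 362 bp. No reference peak overlapped the aligned part of Naip1, whose nearest reference peak was 37702 bp from a start site.

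Pycard, the adaptor that links sensors to Casp1, is a short gene at chr7:127989708-127993867 on the minus strand. Its start site peak, chr7:127993644-127993851, had the lowest score of the members (845) and began 16 bp downstream of the annotated start. Another peak in the gene scored 505. The remaining 9 of 11 peaks in the window were nearest to other genes, and the best distal one, chr7:128019288-128019483 upstream of Pycard, scored 911.

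Casp1 and Casp4, the caspases that cut gasdermin D, are neighbours on chromosome 9 and transcribed in the same direction. Casp1 lies at chr9:5298517-5307265 and Casp4 at chr9:5308828-5336783. The start site peak of Casp1 (chr9:5298337-5298753, 417 bp) scored 1581 and that of Casp4 (chr9:5308652-5308922, 271 bp) scored 1176. A further peak near the Casp4 start scored 349. One intronic peak in Casp1, 1704 bp downstream of its start, scored 695. The best distal peak of both windows lay in a Casp4 intron, 3093 bp from the most upstream Casp4 start, and scored 934. Casp12, a related gene next to them, had no peak within 1000 bp of a start site, the nearest edge being 1050 bp away.

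Gsdmd, the substrate whose fragment forms the pore, lies at chr15:75862327-75867408 on the plus strand in a gene-dense stretch. Its window held 18 peaks, of which 3 were nearest to Gsdmd, 8 to Zc3h3 and the rest to Mroh6, Eef1d or Naprt. The start site peak, chr15:75862213-75862278, was the narrowest of the member peaks with 66 bp and scored 1381. The best distal peak, chr15:75856892-75857722, lay 5302 bp upstream, was 831 bp wide and scored 1644, which exceeded the start site score. Gsdmd, Naip2 and Pycard were the members with a distal summit in the window, over 1000 bp from every coding start, that scored above their start site summit. These 3 of 10 compare with 38.1% of the coding genes that have a start site peak. No summit lay in the Gsdmd gene body.

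The wider pathway was described with a list of 37 further genes, of which 36 were found in the annotation by symbol (Pyhin1 was not). A start site peak was present in 29 of these 36, beside 56.5% of coding genes. All 11 regulators of inflammasomes had one, among them Nek7 (1606), the kinase that binds Nlrp3, the ATP-gated channel gene P2rx7 (1394), Txnip (1969) and the guanylate-binding protein genes Gbp2 (1141) and Gbp5 (1176). Among executioners 5 of 6 had one, with Casp8 scoring 2021 and Ninj1, a membrane rupture protein, 1619. Among the further sensors 7 of 11 had one, including Nlrp1a (1734), Nlrp1b (1670) and Zbp1 (1212). The sensors Ifi203 and Mndal had the same best start site peak (1456), which was thus counted for both.

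Start site peaks were present in 3 of 4 cytokine genes and in 3 of 4 genes that control cytokines. Il1b, the cytokine gene matured by Casp1, had 8 start site peaks and 18 extended regions in its window and a best start site score of 1071. Il18 had 14 extended regions and a score of 1632, and the alarmin gene Il1a had 16 and a score of 534. Among the controlling genes, Il1rn (the interleukin-1 receptor antagonist) had 14 and a score of 1543, Il18bp had 8 and 1129, and the decoy receptor gene Il1r2 had 7 and 644. Genes without a start site peak were Naip1, Nlrp6, Nlrp12 and Mefv (pyrin) among sensors, Casp12 among caspases, the alarmin gene Il33, and Serpinb1a, an inhibitor of inflammatory caspases. Their nearest peak edges were 37702 bp away for Naip1, 26158 bp for Nlrp12, 8371 bp for Nlrp6, 3003 bp for Mefv, 2521 bp for Il33, 1859 bp for Serpinb1a and 1050 bp for Casp12. The catalog does not show whether a gene is transcribed.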

How the data were processed

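ATAC-seq reads of 76 bases from 18 BMDM libraries had been processed by the authors. Adapters were removed with BBDuk, reads were trimmed with Trimmomatic (0.39), aligned to mm10 with the mapping step of ShortStack and filtered with SAMtools (1.9), and peaks were called with MACS2 (2.2.6) with duplicates kept. Peaks were retained at a stringent q-value and where replicates overlapped. No shift towards the transposase cut site is named, so a summit can lie beside the most cut position, and kept duplicates can raise a score.

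The deposited files were 3 pooled lists: reference peaks and extended regions (positions only) and summits with a score. The score was deposited by the authors with no scale stated, and 0 columns belonged to other samples. Depth per library is unknown, so no interval was given for scores or numbers of peaks. The limits given for motif counts of 0 are 3 divided by the number of windows, with the windows taken as independent.

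Members, gene lists and motifs were chosen with earlier results of these data known. Genes and start sites came from GENCODE M21 and sequence from GRCm38.p6, and RefSeq start sites were found for 9 of 10 members (not Gsdmd). A start site peak has an edge within 1000 bp of a start site. Named features were all members, the best summit of each window over 1000 bp from any coding start, the 5 widest peaks, the extended region with the most summits and pathway genes without a start site peak, and others were named after their values were seen. Of these, 1 gene and 1 start site sequence are not reported here. Motifs were searched within 100 bp of summits. Occurrences of 76- and 38-base stretches in the primary chromosomes were counted over both strands. NAIP peaks were aligned locally with Biopython (1.88). The motif search and the stretch count were tested on simulated data. Alternatives were other windows (500 and 2500 bp at starts, 20000 and 100000 bp around genes, 50 and 200 bp around summits), other start sites, other feature types and peaks at or above the median score.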

Additional observations from a re-analysis of the deposited data

How the results depend on the processing

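Of 30 values obtained for the main results under an alternative, 22 stayed within 1.5 times the value reported. Windows of 20000 bp to each side plus the gene body held 68 reference peaks, and peaks at or above the median score numbered 47, both against 105, by construction of these alternatives. The median number of extended regions per member was 4 with 20000 bp, 10 with 100000 bp and 4 when only regions with a summit at or above the median score were counted, against 6.5, with 2, 9 and 3 over all coding genes. The share of member peaks with any of the 11 motifs was 70.5% within 100 bp of the summit and 42.9% within 50 bp, beside 65.7% and 47.6% of all reference peaks. NF-kB was matched at the start site summits of 2 members (Pycard and Casp4) within 50 bp and of the same 4 within 200 bp, beside 2.28% and 7.63% of all coding start site summits. In the Naip6 window, 58.4% of 38-base stretches occurred more than once, beside 16.9% in the genome sampled every 2000 bp. Start site peaks were found for 9 members within 500 bp (Naip5 lost) and for 9 at the most upstream start alone (Aim2 lost), beside 54.9% and 52.1% of coding genes. In an alternative chosen after seeing the data, 7 members had a peak over a GENCODE start itself, beside 49.7% of coding genes. Among single genes and motifs, 50 of 72 values stayed within 1.5 times. No paired analysis was possible because the pooled lists have no column per library, and for the same reason no replicate could be left out.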

Other observations

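Distance to the nearest start site depends on the annotation, and 3 of the pathway genes counted as lacking a start site peak had one close by. The nearest peak edge was 1050 bp from a Casp12 start, 1859 bp from a Serpinb1a start and 2521 bp from an Il33 start. With a limit of 2500 bp, 31 of 36 pathway genes had a peak, and 59.9% of coding genes.

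Neighbouring reference peaks of the member windows touched without a gap in 4 pairs. Of the 115 member summits, 4 had a central 38-base stretch that occurs more than once in the genome, beside 2.66% of all summits. Among the best summits of peaks, this stretch occurs 6 times for an Nlrp3 intronic peak (score 167), 3 times for the distal Naip2 peak that scored 1903 and 2 times for the Naip2 start site peak (score 1129). A 76-base stretch around the summit occurs more than once for 1 of the 115, beside 1.07% of all summits.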
